A study of Arabidopsis thaliana with 3 samples.

Results

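The 9 genes described here encode Arabidopsis poly(ADP-ribose) polymerases and proteins that join broken DNA ends. They were taken by locus identifier, with earlier results of these data known, from a table of transcript levels that holds 33559 loci. The genes are PARP1 (AT2G31320), PARP2 (AT4G02390), PARP3 (AT5G22470), KU70 (AT1G16970), KU80 (AT1G48050), LIG4 (AT5G57160), XRCC4 (AT3G23100), TEBICHI (AT4G32700) and XRCC1 (AT1G80420). The 2 nuclear PARP genes have carried swapped numbers: the RefSeq gene table lists ATPARP2 as an older name of AT2G31320 and ATPARP1 as an older name of AT4G02390, and the current symbols are used here.

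Polyadenylated RNA was sequenced from 14-day-old seedlings of 3 genotypes in the Col ecotype, with 1 library per genotype: wild type, mms19-1 and abo4. MMS19 is a cytosolic factor that delivers iron-sulfur clusters to proteins, and mms19-1 is described by the study as a T-DNA insertion allele. ABO4 is the catalytic subunit of DNA polymerase epsilon; nulls are embryo-lethal, and the abo4 plants carry a viable weak missense allele. The levels are FPKM, the number of fragments per kilobase of transcript scaled to the library's mapped reads. The MMS19 transcript stood at 10.14 FPKM in wild-type plants, 0.228 in mms19-1 and 9.01 in abo4, which is the pattern the labels call for. ABO4 was at 5.03, 6.95 and 8.09 FPKM in the same order, and a missense allele gives no expectation for its transcript.

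Poly(ADP-ribose) polymerases bind to DNA breaks, are activated there, and build chains of ADP-ribose from NAD+ on themselves and on nearby proteins. The chains attract repair factors and are later removed by glycohydrolases. In the classical end-joining route the KU70-KU80 ring slides onto a double-strand end, and the XRCC4-LIG4 complex seals it. Alternative routes use PARP proteins and the helicase-polymerase TEBICHI, the plant counterpart of mammalian polymerase theta, which anneals short stretches of shared sequence.

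As every genotype is a single library, differences between genotypes could not be tested, and each is a difference between 2 libraries. Intervals on ratios are exact 95% conditional binomial intervals on read numbers estimated from FPKM, and they cover counting error only. Estimated depth was 55982000 reads for wild-type plants, 51332000 for mms19-1 and 49586000 for abo4. Both mutants were set against the same wild-type library. In whole seedlings, more or fewer cells of a type and more or less RNA per cell cannot be told apart.

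As examples of what lies ahead of the genes, the 150 bases before the annotated transcript start are printed for PARP2, TEBICHI and PARP1. Capitals mark the fixed letters of matches to CTTNNNNNNNAAG, the pattern bound by SOG1, the plant transcription factor of the DNA damage response. The bases are from RefSeq's TAIR10.1 genome, given 5′ to 3′ on the gene's own strand: PARP2 from chr4:1049616-1049765 (+), TEBICHI from chr4:15767035-15767184 (+) and PARP1 from chr2:13359751-13359900 (-).
PARP2: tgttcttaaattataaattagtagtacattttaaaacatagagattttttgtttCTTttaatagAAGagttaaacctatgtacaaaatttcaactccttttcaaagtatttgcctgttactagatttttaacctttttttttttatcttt
TEBICHI: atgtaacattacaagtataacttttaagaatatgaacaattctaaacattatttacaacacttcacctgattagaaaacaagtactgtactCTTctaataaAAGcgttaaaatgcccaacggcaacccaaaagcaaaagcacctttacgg
PARP1: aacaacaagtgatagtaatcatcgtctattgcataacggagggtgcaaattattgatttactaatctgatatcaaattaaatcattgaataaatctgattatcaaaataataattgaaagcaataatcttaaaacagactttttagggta

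The match began 96 bases before the start of PARP2 and 59 bases before that of TEBICHI. No match was found in the PARP1 stretch. In a window from 250 bases before to 50 bases after the start, 4 of the 9 genes held the pattern, since LIG4 had a match beginning at base 37 of its transcript and XRCC1 at base 5. The pattern is its own reverse complement, so that both strands give the same matches, and it occurred in 11.8% of the same windows of 27444 protein-coding genes. The E2F patterns TTTCCCGC, TTTCGCGC, TTTGCCGC and TTTGGCGC, searched on both strands, were in 0 of the 9 windows and in 1.76% of all windows. Among 11 DNA damage response genes, 3 held the SOG1 pattern (SMR4, SMR5 and SMR7) and 2 held an E2F pattern (BRCA1 and SMR7). A match describes letters only. PARP2 and TEBICHI both held the SOG1 pattern within 100 bases before the start. LIG4 and XRCC1 held it after the start. Of these 4 genes, PARP2 alone passed 2-fold in a mutant, as described next.

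Of the 8 genes that averaged at least 1 FPKM, PARP2 had the ratios farthest from 1 in both mutants. It was at 7.63 FPKM in wild-type plants, 20.8 in mms19-1 and 31.0 in abo4, from about 908, 2276 and 3267 estimated reads. The wild-type library was the lowest of the 3 and the abo4 library the highest. The ratio to the wild type was 2.73 in mms19-1 (95% interval 2.53 to 2.96) and 4.06 in abo4 (3.77 to 4.38). On the scale of log2((FPKM + 0.1)/(FPKM + 0.1)) these were 1.44 and 2.01. Of 19771 loci with a mean of at least 1 FPKM, PARP2 ranked 109 from the top in mms19-1 and 105 from the top in abo4.

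PARP1 encodes the larger of the 2 nuclear enzymes and has a coding length of 2952 nt, against 1701 to 1914 nt for PARP2. It was at 7.35 FPKM in wild-type plants, 9.05 in mms19-1 and 11.0 in abo4. The libraries stood in the same order as for PARP2, over a narrower range. The ratio was 1.23 in mms19-1 (1.14 to 1.33) and 1.498 in abo4 (1.39 to 1.61), and neither passed 2-fold. PARP1 lay above 92.2% of loci by its log2 ratio of 0.30 in mms19-1 and above 94.6% by its log2 ratio of 0.58 in abo4.

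PARP3, known as a seed-expressed member of the family, was barely detected. It was at 0.0681 FPKM in wild-type plants, 0.134 in mms19-1 and 0.0154 in abo4, which correspond to about 10, 18 and 2 reads. Its ratio to the wild type was 1.97 in mms19-1 (0.859 to 4.76) and 0.226 in abo4 (0.0241 to 1.06), and both intervals held 1. The 4 seed storage protein transcripts (CRA1, CRB, CRC and SESA3) summed to 14.9 FPKM in wild-type plants, 29.0 in mms19-1 and 8.75 in abo4. CRB and SESA3 were higher past 2-fold in mms19-1, as were 2.38% of the loci above 0. CRB was at 0.0873, 1.02 and 0 FPKM in the same order, and SESA3 at 0.316, 3.86 and 0.143. They rested on about 7 and 10 reads in the wild type. The part of the 4 transcripts in the PARP3 values was not tested.

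**Figure D1:**
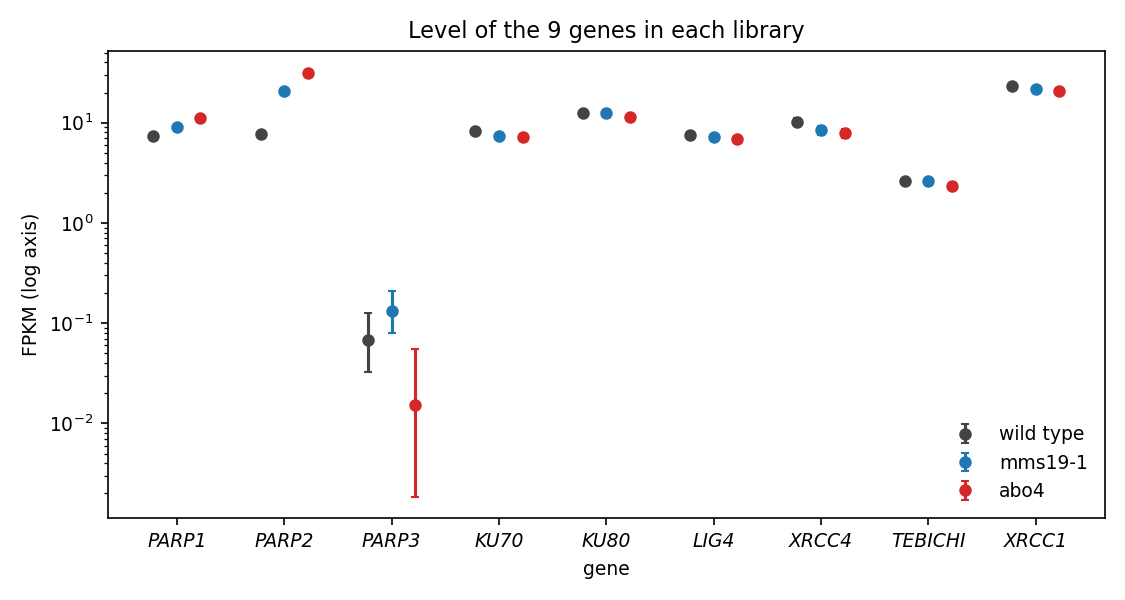
Level of each of the 9 genes in the wild-type, mms19-1 and abo4 libraries (FPKM, log axis); points are single libraries and bars are 95% Poisson intervals that cover counting error only. PARP2 is at 7.63 FPKM in the wild type and 31.0 in abo4, PARP3 is at 0.134 or below in each library, and the 6 genes to the right of PARP3 differ by less than 1.5-fold from the wild type.

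The core end-joining genes had lower or near-equal levels in the mutants. KU70, a subunit of the end-binding ring, was at 8.27 FPKM in wild-type plants, 7.36 in mms19-1 and 7.24 in abo4. Its ratio was 0.890 in mms19-1 (0.809 to 0.977) and 0.875 in abo4 (0.796 to 0.964). KU80, its partner, was at 12.6, 12.6 and 11.3 FPKM in the same order, with ratios of 0.999 (0.928 to 1.07) and 0.899 (0.833 to 0.969). For KU80 the wild-type and mms19-1 libraries could not be separated by counting error, and the abo4 library was slightly lower.

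LIG4, the DNA ligase of the classical route, was at 7.56 FPKM in wild-type plants, 7.24 in mms19-1 and 6.85 in abo4. Its ratio was 0.958 in mms19-1, with an interval that held 1 (0.885 to 1.04), and 0.906 in abo4 (0.835 to 0.983). XRCC4, which binds and stabilizes the ligase, was at 10.12, 8.43 and 7.83 FPKM in the same order. Both mutant libraries were below the wild type, by a ratio of 0.833 in mms19-1 (0.724 to 0.955) and 0.774 in abo4 (0.671 to 0.893). XRCC4 had the lowest log2 ratio in each mutant among the 8 genes that averaged at least 1 FPKM, -0.26 and -0.37, and 11.6% and 11.5% of all such loci lay lower.

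TEBICHI had the longest transcript of the 9, 7232 nt, and was at 2.60 FPKM in wild-type plants, 2.62 in mms19-1 and 2.34 in abo4. Its ratio was 1.00 in mms19-1 (0.919 to 1.10) and 0.900 in abo4 (0.821 to 0.988). XRCC1, a scaffold protein of single-strand break repair that also serves alternative end joining, was at 23.4, 21.7 and 20.7 FPKM in the same order. Its ratio was 0.927 in mms19-1 (0.866 to 0.992) and 0.885 in abo4 (0.826 to 0.949). None of the 6 genes KU70, KU80, LIG4, XRCC4, TEBICHI and XRCC1 moved by as much as 1.5-fold in a mutant. Of the loci above 0, 5.28% were higher and 4.49% lower past 1.5-fold in mms19-1, and 9.14% and 6.86% in abo4.

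**Figure D2:**
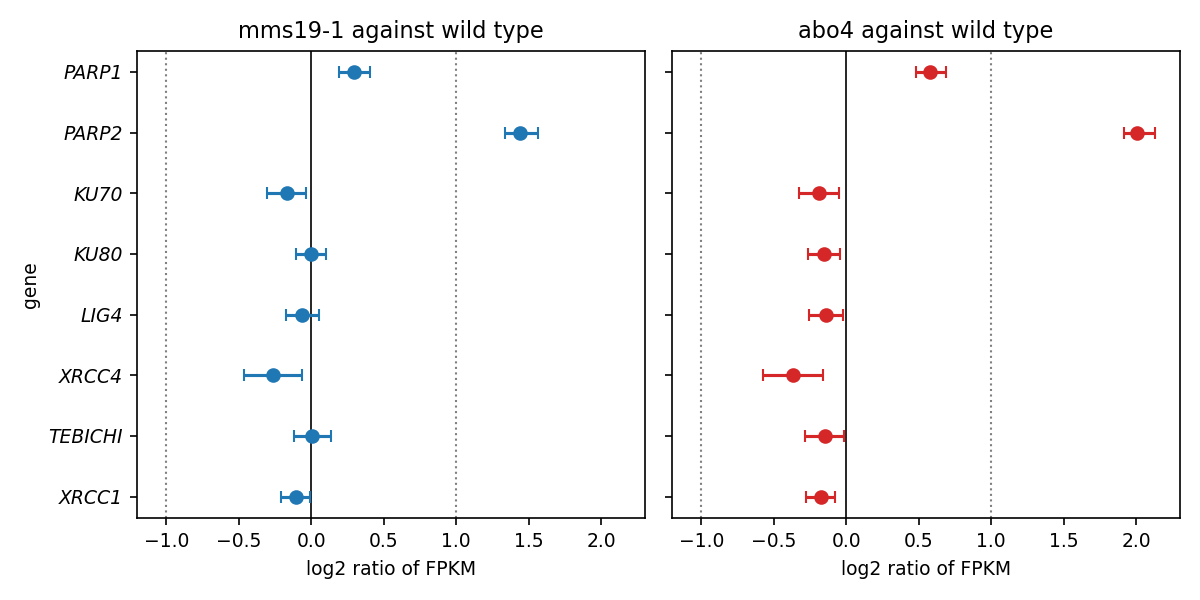
Log2 ratio of FPKM for 8 genes in mms19-1 (left) and abo4 (right) against the wild type; bars are exact 95% intervals for counting error and dotted lines mark 2-fold. PARP2 lies at 1.44 and 2.01, beyond the 2-fold line in both panels, PARP1 at 0.30 and 0.58, and the other genes lie between -0.37 and 0.01; PARP3 is left out for its few reads.

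Read against the whole table, 1 of the 9 genes (PARP2) was higher past 2-fold in mms19-1 and 0 were lower, where 2.38% of the 26416 loci above 0 in at least 1 library were higher and 1.64% lower. In abo4, 1 of 9 (PARP2 again) was higher and 0 were lower, against 3.87% and 2.58% of loci. Among loci with a mean of at least 1 FPKM, which leaves 8 of the 9 genes, the background was 1.03% higher and 0.804% lower in mms19-1, and 1.92% higher and 1.90% lower in abo4. The median log2 ratio over these 8 genes was -0.03 in mms19-1 and -0.15 in abo4, beside -0.02 and -0.01 over all loci with a mean of at least 1 FPKM.

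Intervals that cover counting error are narrow at this depth and many loci pass them. The 8 genes that averaged at least 1 FPKM were set against 19697 loci at that level with an annotated transcript. PARP3 is outside that set, and its intervals against the wild type held 1. In mms19-1 the interval lay above 1 for 2 of the 8 (PARP1 and PARP2), against 20.2% of these loci. It lay below 1 for 3 (KU70, XRCC1 and XRCC4), against 26.3%. In abo4 it lay above 1 for 2 of the 8 (PARP1 and PARP2), against 28.1% of these loci. It lay below 1 for 6 (KU70, KU80, LIG4, XRCC4, TEBICHI and XRCC1), against 31.7%. Variation between plants and between preparations was not measured, and the slightly lower values of the end-joining genes carry no error beyond counting.

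**Figure D3:**
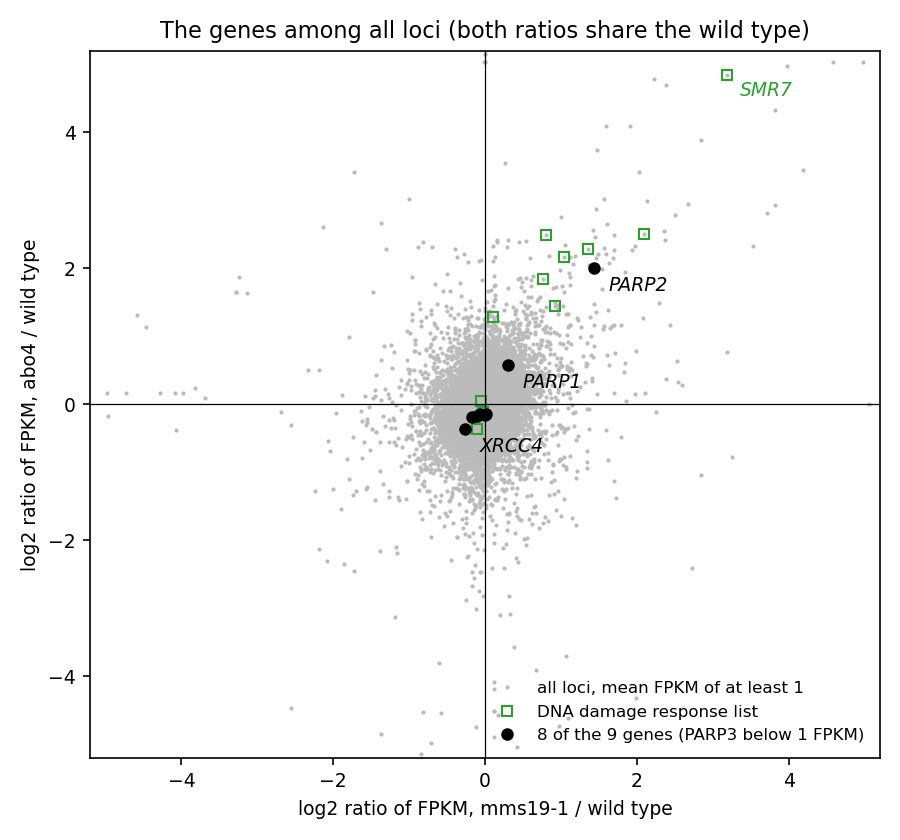
Log2 ratio of FPKM in mms19-1 (horizontal) and in abo4 (vertical) against the same wild-type library for 19771 loci with a mean of at least 1 FPKM (grey; 101 loci fall outside the axes), with 8 of the 9 genes in black and 11 DNA damage response genes as green squares. PARP2, at 1.44 and 2.01, lies among the green squares of the upper right, near BRCA1 at 1.35 and 2.29, PARP1 lies at 0.30 and 0.58, and the other 6 black points lie between -0.37 and 0.01 on both axes.

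The mutants were also set against each other. PARP2 was 1.49 times as high in abo4 as in mms19-1 (1.41 to 1.57) and PARP1 1.22 times (1.13 to 1.304). Neither passed 2-fold. PARP3 passed the limit downwards, at a log2 ratio of -1.02 that rests on about 2 against 18 reads (ratio 0.115, 0.0129 to 0.480). With that gene, 0 of 9 were higher and 1 of 9 lower past 2-fold, against 3.60% and 3.26% of loci above 0, or 2.09% and 2.31% of loci with a mean of at least 1 FPKM. The counting interval lay above 1 for 2 genes (PARP1 and PARP2) and below 1 for KU80 and TEBICHI, against 31.0% and 29.2% of loci with a mean of at least 1 FPKM. It also lay below 1 for PARP3, which is outside that set of loci. KU70 was at a ratio of 0.984 between the mutants (0.891 to 1.09).

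The order of the levels within a library changed through PARP2 and PARP1. In the wild type XRCC1 was the most abundant of the 9 transcripts per length at 23.4 FPKM, followed by KU80, XRCC4, KU70, PARP2, LIG4, PARP1, TEBICHI and PARP3. From KU70 at 8.27 FPKM to PARP1 at 7.35, each neighbouring pair in that order was within counting error, although KU70 and PARP1 themselves were not (PARP1 over KU70 0.889, 0.818 to 0.966). In mms19-1 PARP2 had moved from the fifth place to the second, and its 20.8 FPKM was within counting error of the 21.7 of XRCC1. PARP1 and XRCC4, and KU70 and LIG4, were also not separable there. In abo4 PARP2 was first, at 1.497 times the level of XRCC1 (1.41 to 1.59), and KU80 and PARP1, XRCC4 and KU70, and KU70 and LIG4 were the neighbours within counting error. PARP1 moved from place 7 in the wild type to place 4 in each mutant. Its ratio to KU70 was 1.23 in mms19-1 (1.13 to 1.34) and 1.52 in abo4 (1.40 to 1.66). PARP2 made up 9.59% of the summed FPKM of the 9 genes in wild-type plants, 23.2% in mms19-1 and 31.5% in abo4.

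Ratios between genes of the same library do not depend on how libraries are scaled to each other. PARP2 was at 1.04 times the level of PARP1 in the wild type (0.953 to 1.13), 2.303 times in mms19-1 (2.16 to 2.46) and 2.81 times in abo4 (2.65 to 2.98). The proportion of the Ku subunits stayed closer together, with KU70 at 0.658 times KU80 in the wild type (0.606 to 0.713), 0.586 in mms19-1 (0.536 to 0.639) and 0.641 in abo4 (0.585 to 0.702). XRCC4 was at 1.34 times LIG4 in the wild type (1.204 to 1.49), 1.16 in mms19-1 (1.03 to 1.31) and 1.14 in abo4 (1.01 to 1.296). The intervals of the 3 libraries overlapped for both of these pairs, and for PARP2 over PARP1 the wild type stood clear of the mutants.

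**Figure D4:**
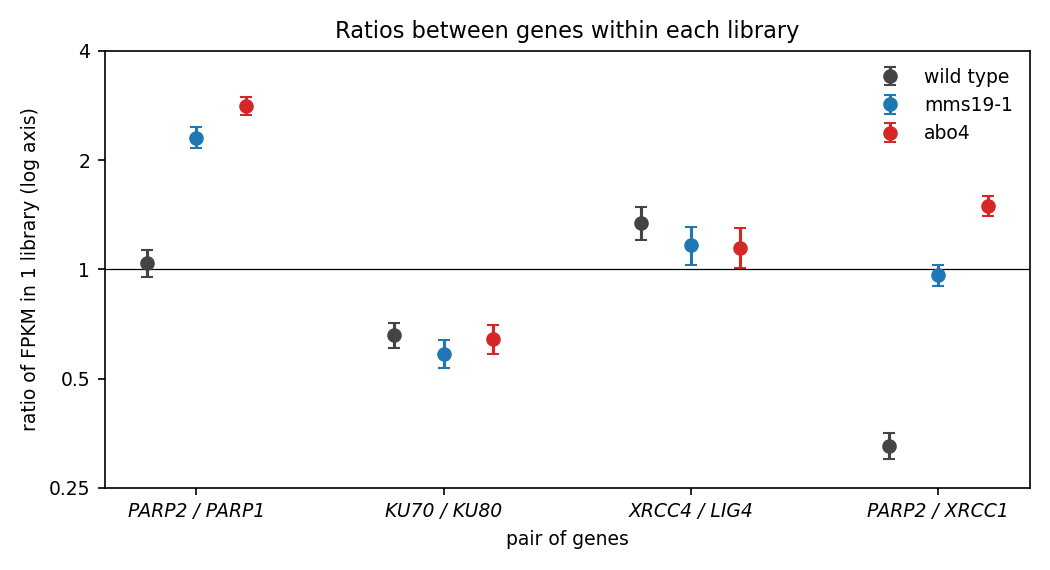
Ratio of FPKM between paired genes inside each library (log axis), with exact 95% intervals for counting error; points are single libraries. PARP2 over PARP1 is 1.04 in the wild type against 2.303 in mms19-1 and 2.81 in abo4, and PARP2 over XRCC1 is 0.326, 0.962 and 1.497, while KU70 over KU80 lies between 0.586 and 0.658.

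The genes next to PARP2 on chromosome 4 did not pass 2-fold in either mutant. AT4G02400, on the same strand and starting 12 bases after the annotated end of PARP2, was at 16.3 FPKM in wild-type plants, 15.9 in mms19-1 and 14.0 in abo4. AT4G02380, 2660 bases away on the other side and on the opposite strand, was at 284, 252 and 260 FPKM. No annotated gene overlapped PARP1, PARP2, PARP3, KU80 or TEBICHI. An exon of AT1G16960 on the opposite strand shares 121 bases with KU70, or 5.16% of its exon bases, and AT5G57150 shares 102 bases with LIG4, or 2.55%. AT1G16960 was at 14.0, 10.8 and 8.40 FPKM, so it stood in the same order as KU70, and its part in the KU70 values was not tested. A tRNA gene overlaps XRCC1 and AT3G23110 overlaps XRCC4, but neither shares exon bases with them.

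Of 19771 loci, the 4 whose pair of log2 ratios lay nearest to that of PARP2 were AT1G03660, AT3G25880, PISTILLATA (PI, AT5G20240) and MIR2111a (AT3G09285), at Euclidean distances of 0.078 to 0.205 over the 2 ratios. AT1G03660 was at 1.61 FPKM in wild-type plants, 4.31 in mms19-1 and 6.94 in abo4. PI, a floral organ identity gene, was at 0.660, 1.99 and 3.28 FPKM. AT3G25880 and MIR2111a rested on about 17 and 3 reads in the wild type. All of these had a lower level than PARP2 in each library.

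Enzymes that remove or degrade ADP-ribose were examined beside the PARP genes. Of 4 genes of poly(ADP-ribose) turnover, 0 passed 2-fold in either mutant. Their median log2 ratio was -0.44 in mms19-1 and 0.51 in abo4. NUDX7, a hydrolase of ADP-ribose and NADH, was at 41.8 FPKM in wild-type plants, 23.5 in mms19-1 and 56.9 in abo4, so the wild type lay between the mutants. NUDX6, a related hydrolase, was at 1.26, 0.949 and 2.18 FPKM. The glycohydrolase genes PARG1, at 3.37, 3.64 and 4.82 FPKM, and PARG2, at 2.20, 1.52 and 3.20 FPKM, fall outside the rule for named genes and were added after their values were seen.

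RCD1 and the SRO proteins carry a PARP-like domain. In this family of 6, SRO3 was higher past 2-fold in mms19-1 and SRO3 and SRO5 in abo4. Of the loci above 0, 2.38% and 3.87% were higher past 2-fold in these mutants. SRO3 was at 0.372, 0.898 and 0.973 FPKM in wild type, mms19-1 and abo4, from about 19 reads in the wild type, and SRO5 at 2.62, 2.60 and 5.80 FPKM. The 6 genes of NAD synthesis, which supply the substrate of PARP enzymes, had 0 members past 2-fold in either mutant and medians of -0.02 and -0.03. All 6 averaged at least 1 FPKM. Of loci at that level, 1.03% were higher and 0.804% lower past 2-fold in mms19-1, and 1.92% and 1.9% in abo4. The members farthest from 0 were NIC1, a nicotinamidase, at a log2 ratio of -0.19 in mms19-1, and AO, the L-aspartate oxidase of the first step, at -0.33 in abo4.

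The 14 genes of base excision and single-strand break repair, the route in which XRCC1 acts, had 0 past 2-fold in either mutant. Their medians were -0.16 in mms19-1 and -0.07 in abo4. All 14 averaged at least 1 FPKM. Of loci at that level, 1.03% were higher and 0.804% lower past 2-fold in mms19-1, and 1.92% and 1.9% in abo4. TDP1, which removes trapped topoisomerase from DNA ends, was the farthest from 0 in mms19-1, at 8.68 FPKM in the wild type and 6.82 in the mutant. NTH2, an endonuclease for oxidized bases, was the farthest in abo4, at 11.2 FPKM in the wild type and 8.98 in the mutant.

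Among 10 other genes of end joining and end processing, 0 passed 2-fold in mms19-1, and 1 was higher and 1 lower in abo4. All 10 averaged at least 1 FPKM. Of loci at that level, 1.92% were higher and 1.9% lower past 2-fold in abo4, and 1.03% and 0.804% in mms19-1. GR1, the plant counterpart of the end-resection factor CtIP, was at 1.35 FPKM in wild-type plants, 2.44 in mms19-1 and 2.92 in abo4. RAD50, of the complex that tethers and trims ends, was at 14.7 and 13.3 FPKM in the wild type and mms19-1 and at 4.92 in abo4, a ratio of 0.336 (0.313 to 0.360). Its complex partners MRE11, at 5.43, 5.42 and 4.32 FPKM, and NBS1, at 3.91, 3.62 and 3.07 FPKM, were looked up after the RAD50 value was seen, and neither passed 2-fold.

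Genes of the DNA damage response were listed with earlier results of these data known, so their direction is not independent evidence. Of the 11 genes, 4 were higher past 2-fold in mms19-1 (BRCA1, XRI1, SMR5 and SMR7) and 8 in abo4 (those 4 with SMR4, CYCB1;1, TSO2 and RPA1E), and 0 were lower, where 2.38% and 3.87% of the loci above 0 were higher. SMR7, an inhibitor of cyclin-dependent kinases, had the largest ratio, at 3.31 FPKM in wild-type plants, 31.0 in mms19-1 and 97.3 in abo4. BRCA1, a recombination mediator, was at 4.29, 11.1 and 21.4 FPKM. The kinase genes ATM and ATR and the regulator gene SOG1 were the 3 genes of the list that did not pass 2-fold in abo4.

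**Figure D5:**
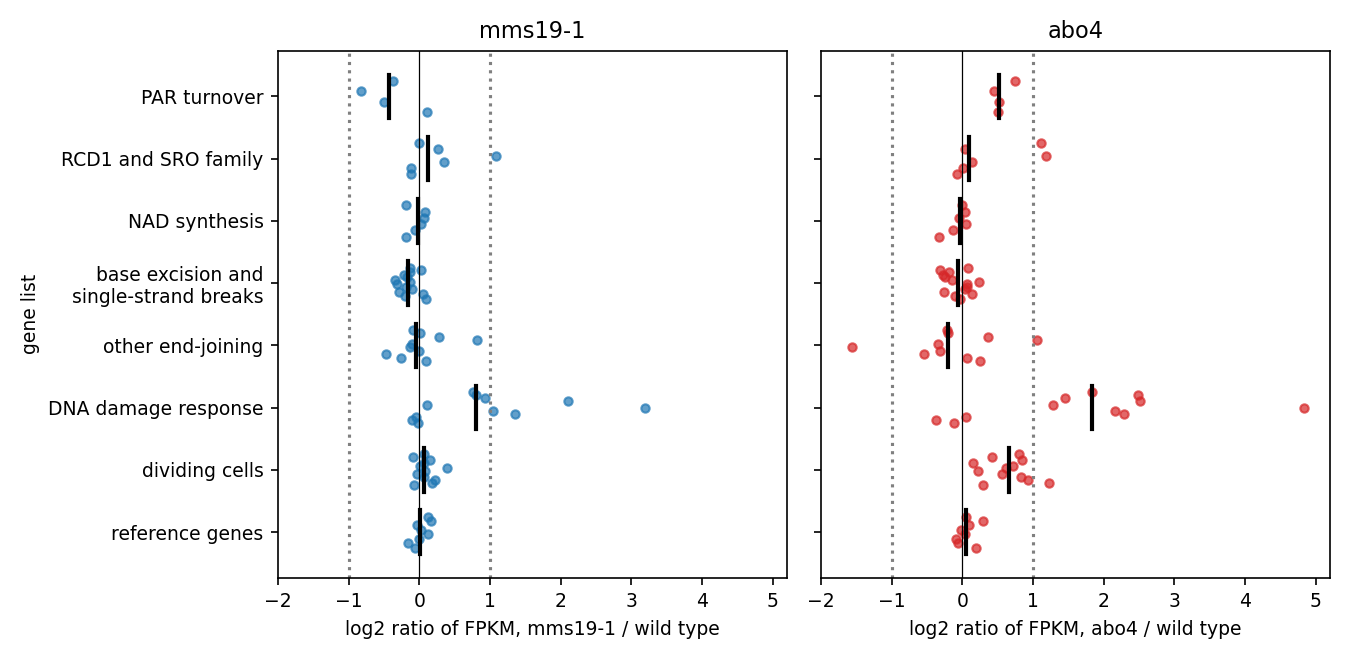
Log2 ratio of FPKM against the wild type for the genes of 8 lists in mms19-1 (left, blue) and abo4 (right, red); each point is a gene, the thick black line is the list's median and dotted lines mark 2-fold. The DNA damage response list has a median of 0.80 in mms19-1 and 1.84 in abo4, the dividing-cell list of 0.07 and 0.67, and the NAD synthesis, base excision and reference lists lie near 0.

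Markers of dividing cells had a higher median log2 ratio in abo4 than in mms19-1. The log2 ratios of the 12 in abo4 ran from 0.15 to 1.23. Their median was 0.67, beside -0.01 over all loci with a mean of at least 1 FPKM. CDKB1;1 alone passed 2-fold, where 1.92% of loci with a mean of at least 1 FPKM were higher past 2-fold. Their summed level was 138 FPKM in wild-type plants, 142 in mms19-1 and 209 in abo4, and none was at 0. In mms19-1 the log2 ratios of the markers ran from -0.09 to 0.39. Their median was 0.07, beside -0.02 over all such loci. Of the 12 markers, 0 passed 2-fold there, where 1.03% of such loci were higher and 0.804% lower. Their part in the abo4 values of PARP1 and PARP2 was not tested.

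The other marker lists gave the makeup of the libraries. The 5 green-tissue markers lay between 3144 and 19168 FPKM in every library. The 4 root markers lay between 1.02 and 17.5 FPKM and summed to 24.9 in wild-type plants, 16.3 in mms19-1 and 28.5 in abo4. The iron-uptake gene IRT1 made most of that difference, at 14.5, 7.30 and 17.5 FPKM in the same order. The pollen marker VGD1 stood at 0.260 to 0.337 FPKM. The 8 reference genes had median log2 ratios of 0.01 in mms19-1 and 0.05 in abo4, and none passed 2-fold.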

How the data were processed

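One FPKM table was used. As deposited by the authors, it gives FPKM for the 3 libraries. Per the labels and the study's methods, the authors aligned reads to TAIR10 with Tophat 2.0.12 and estimated abundances with Cufflinks 2.0.1. Strandedness and the handling of multiply aligned reads are not given in the sources used here. Its 34133 rows were reduced to 33559 loci, keeping the row with the larger mean. Each of the 9 genes had 1 row.

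Ratios are of FPKM, and log2 ratios use a pseudocount of 0.1, which understates changes of low genes. A locus past 2-fold has an absolute log2 ratio above 1. No test was run, as each genotype had 1 library. Whether the seedlings were pooled from several plants is not given in the sources used here.

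Reads were estimated from FPKM, the mean effective length of annotated transcripts (RefSeq, TAIR10.1; fragments of 200 nt on average, SD 80, shortest 49) and a depth. The depth was the one at which most values of single-transcript genes of 1000 to 3000 nt, within 0.5 to 20 reads, came out whole. The share within 0.05 of a whole number was 49.2% in wild-type plants, 54.6% in mms19-1 and 59.1% in abo4. Read numbers are therefore approximate. Ratios received exact (Clopper-Pearson) 95% conditional binomial intervals, and the calculation was tested on simulated data.

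The named genes are the 9 genes, MMS19, ABO4, the members of each other list past 2-fold or farthest from 0 in a mutant, and the 5 loci nearest to PARP2. The 9 genes and the lists were chosen with earlier results of these data known. Promoter windows were read from the TAIR10.1 genome at annotated starts, which may differ from the authors' gene models. Protein sequences were not used here. An item of the planned lists is not reported here. Alternatives were other pseudocounts, fold limits, minimum levels, centring and summed rows. Python 3.11.15, numpy 2.4.6, pandas 2.3.3, scipy 1.17.1 and matplotlib 3.10.9 were used.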

Additional observations from a re-analysis of the deposited data

Results flagged for a closer look

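PARP3 and TEBICHI were singled out because their log2 ratios to the wild type had opposite signs in the mutants; the difference was not tested, since each genotype had 1 library. PARP3 was at 0.48 in mms19-1 and -0.54 in abo4, on about 18 and 2 reads against 10 in the wild type. TEBICHI was at 0.0069 in mms19-1, where its counting interval held equality, and -0.15 in abo4. Centred on the reference genes it was at -0.0073 in mms19-1, so that both signs were then negative.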

How the results depend on the processing

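The alternatives were pseudocounts of 0.01 and 1 FPKM, centring on all loci or on the reference genes, summed rows, fold limits of 1.5 and 4, and a minimum mean of 1 FPKM. The log2 ratios of the 8 genes other than PARP3 moved by at most 0.12 under any of them. Among these 8 genes, PARP2 in abo4 was the value that left its counting interval, at 1.89 with a pseudocount of 1. It stayed past 2-fold. PARP3 in abo4 against mms19-1 was at -0.16 with a pseudocount of 1. That lay outside its interval, -6.27 to -1.06 on the log2 scale, as did its reported value of -1.02. At a 4-fold limit, the count of genes higher in mms19-1 went from 1 to 0, and PARP2 remained past the limit in abo4 by a small margin. Its counting interval in abo4, 3.77 to 4.38, held 4. Centred on the reference genes, PARP2 in abo4 was at a log2 ratio of 1.96, below 4-fold. The counts of lower genes turned on PARP3 alone. Against the wild type, abo4 had 1 lower gene with a pseudocount of 0.01. Against mms19-1 it had 0 with a pseudocount of 1, at a 4-fold limit, or with a minimum mean of 1 FPKM. Of the 5 loci nearest to PARP2, 1 was shared when the pseudocount was 1 and 1 when the minimum mean was 5 FPKM. No paired analysis was possible because each genotype has 1 library. Without replicates only counting error is known, and it alone left PARP3 in both mutants, and KU80, LIG4 and TEBICHI in mms19-1, unseparated from the wild type.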
